A study of Mus musculus with 8 samples.

Results

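The genes described here are 10 of the 28001 features counted in mouse embryonic forelimb cells. They are genes known mainly from neurons, and they were picked by symbol after their levels in these libraries had been seen. *Nefl* and *Nefm* encode the light and medium neurofilament subunits, *Gria1* and *Gria2* encode AMPA-type and *Grin2a* and *Grin2b* NMDA-type glutamate receptor subunits. *Ntrk2* and *Ntrk3* encode the neurotrophin receptors TrkB and TrkC, *Calb2* encodes the calcium binding protein calretinin, and *Snhg11* is a host gene of small nucleolar RNAs that is abundant in brain. Their levels at E14.5 and in the distal E16.5 limb, set against the proximal E16.5 limb and earlier stages, and their presence in cells with *Pdgfra* UMIs were among the values that chose them. Those values are therefore given as a description.

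The assay was 10x Genomics 3′ single-cell RNA-seq, which tags every captured transcript with a unique molecular identifier (UMI). The embryos were C57BL/6J, homozygous for a CreERT2 allele of *Hic1*, a transcriptional repressor gene, and for a Rosa26 tdTomato reporter behind a stop cassette that Cre removes. Their dams were given 7.5 mg of tamoxifen by mouth at embryonic day (E) 10, so that tdTomato marked cells in which the *Hic1* locus then drove CreERT2, and their descendants. Of the 8 libraries, 6 held sorted tdTomato+ cells: forelimbs at E11.5, E12.5, E13.5 and E14.5, the elbow region at E16.5 (E16.5 proximal, distal stylopod and proximal zeugopod) and the outer limb at E16.5 (E16.5 distal, distal zeugopod and autopod). The other 2 (whole 1 and whole 2) held tdTomato+ and tdTomato- cells of E11.5 forelimbs from the same cross and tamoxifen scheme. All these cells had been sorted free of blood and endothelial surface markers, and each sorted library pools forelimbs from more than 1 embryo.

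Each sorted group was 1 library, so the comparisons carry no test and no p-value. Levels are UMIs per 1000000 UMIs of a library (CPM) over the 53085 of 57469 barcodes with at least 3000 UMIs and at most 10% mitochondrial UMIs, which were 3165 to 11109 cells a library with medians of 6788 to 18473 UMIs. The 95% intervals given are exact and cover counting error only, not the spread between embryos. The sorted libraries used the v2 kit to E13.5 and the v3 kit afterwards, so stage and kit cannot be told apart between E13.5 and E14.5. E16.5 distal alone among the sorted libraries was counted with Cell Ranger 6.0.1 instead of 3.0.2, so in its comparisons the sample and the counting version cannot be told apart. In sums over a library, fewer cells with a transcript and less of it per cell cannot be told apart either. No 2 libraries shared more than 1.08% of the barcodes of the smaller.

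Neurofilaments are the intermediate filaments of axons, assembled from light, medium and heavy subunits. AMPA and NMDA receptors are tetrameric ion channels opened by glutamate, and NMDA receptors need the subunit encoded by *Grin1* together with subunits such as those of *Grin2a* and *Grin2b*. Trk receptors bind neurotrophins released by the tissues that nerves grow into, and the limb mesenchyme, the loose connective tissue of the limb bud that gives rise to skeleton, tendon and dermis, is such a tissue. The autopod is the future paw, and *Hoxa13* and *Hoxd13* encode transcription factors that mark it.

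On GRCm38 (GENCODE M21), the 10 genes lie on 9 chromosomes, and all are annotated as protein coding, *Snhg11* included. *Nefl* (chr14:68083863-68089095, + strand) lies within the annotated span of *Nefm* (chr14:68082590-68124846, - strand), and 1108 of the 3380 exonic bases of *Nefl* (32.8%) are also exonic in a long *Nefm* isoform on the opposite strand. Whether counting used the strand is not given in the sources used here, so the split of reads between *Nefl* and *Nefm* over these bases is uncertain. The other positions are *Gria1* chr11:57011387-57330244 (+), *Gria2* chr3:80681450-80802835 (-), *Grin2a* chr16:9567898-9995560 (-) and *Grin2b* chr6:135713233-136173511 (-). *Ntrk2* is at chr13:58806569-59133970 (+), *Ntrk3* at chr7:78175959-78738012 (-), *Calb2* at chr8:110137502-110168210 (-) and *Snhg11* at chr2:158375638-158386145 (+).

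Of the 10 genes, 3 (*Gria2*, *Ntrk2* and *Snhg11*) had a promoter in the RefSeq table used (GRCm38.p6). Among the sorted libraries, *Gria2* was highest at E14.5 and in E16.5 distal, and *Ntrk2* was nearly level. The 250 bases before the start of *Gria2* and of *Ntrk2* are shown 5′ to 3′ on the gene's strand, with a motif match in capitals.
Gria2: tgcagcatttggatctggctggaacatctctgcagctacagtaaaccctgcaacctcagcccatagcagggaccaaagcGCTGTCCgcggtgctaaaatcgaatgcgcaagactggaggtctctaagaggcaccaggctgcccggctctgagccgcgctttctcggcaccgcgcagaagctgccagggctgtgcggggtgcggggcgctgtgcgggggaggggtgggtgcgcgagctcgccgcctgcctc
Ntrk2: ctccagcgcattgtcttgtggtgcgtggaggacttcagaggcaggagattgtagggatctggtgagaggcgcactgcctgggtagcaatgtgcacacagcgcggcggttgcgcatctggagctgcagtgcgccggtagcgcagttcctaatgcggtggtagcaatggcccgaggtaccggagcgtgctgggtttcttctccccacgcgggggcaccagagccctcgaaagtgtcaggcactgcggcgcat
The motifs searched, on both strands, were CAATAAA (bound by Hox13 proteins, present in 4.2% of 32851 promoters of this length) and both parts of the RE1 element bound by REST, a repressor of neuronal genes: TTCAGCACC (0.301%) and GGACAGC (5.28%). Only exact matches were counted. The *Gria2* promoter held 1 exact match, GGACAGC on the opposite strand at position 80, and those of *Ntrk2* and *Snhg11* held none. Close beside the *Gria2* match, on the same strand, lie bases that differ from TTCAGCACC at 1 place. The exact search does not count these bases, so 5.28% is no background for both parts of RE1 together. Whether this promoter holds a whole RE1 element was not tested. No match in this window says nothing of a factor elsewhere. *Rest* itself, looked up after its values were seen, was at 315 CPM at E11.5, 147 CPM at E14.5, 114 CPM in E16.5 proximal and 151 CPM in E16.5 distal.

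Neurofilament transcripts were most abundant in the outer limb at E16.5. *Nefl* stood at 1.08, 3.08, 7.51 and 11.9 CPM at E11.5, E12.5, E13.5 and E14.5, at 8.21 CPM in E16.5 proximal and 40.6 CPM in E16.5 distal, and at 0.974 and 1.07 CPM in whole 1 and whole 2. *Nefm* stood at 5.52, 9.45, 16 and 23.5 CPM over the same 4 stages, at 11.7 and 67.3 CPM in E16.5 proximal and distal and at 3.88 CPM in whole 1 and 3.63 CPM in whole 2. Both genes were thus higher at each stage than at the one before, up to E14.5, and higher in E16.5 distal than in any other library, with counting intervals apart. At E14.5 they were above E13.5 and above E16.5 proximal, though the margin over E16.5 proximal was 1.45 (1.36 to 1.55) times for *Nefl* and 2.00 (1.9 to 2.11) times for *Nefm*.

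The glutamate receptor genes had less uniform patterns, and in E16.5 distal each was below *Nefl* and *Nefm*. *Gria1* was at 0.222, 1.85, 3.7 and 2.1 CPM from E11.5 to E14.5, at 1.18 and 2.07 CPM in E16.5 proximal and distal and at 0.0974 CPM in whole 1 and 0.117 CPM in whole 2. *Gria2* was at 2.29, 1.15, 1.85 and 6.39 CPM over those stages, at 1.06 and 5.6 CPM in E16.5 proximal and distal and at 11 CPM in whole 1 and 13.2 CPM in whole 2. *Gria1* was therefore highest at E13.5, with E14.5 and E16.5 distal overlapping each other, whereas *Gria2* was highest in both whole limb libraries and, among sorted ones, at E14.5 and in E16.5 distal. *Grin2a* was at 0.698, 2.06, 3.68 and 8.73 CPM from E11.5 to E14.5, at 2.28 and 6.27 CPM in E16.5 proximal and distal and at 0.156 CPM in whole 1 and 0.234 CPM in whole 2. *Grin2b* was at 0.0952, 1.33, 2.67 and 12.2 CPM, then at 6.93 and 14.8 CPM in E16.5 proximal and distal, and at 0.117 CPM in whole 1 and 0.039 CPM in whole 2. These NMDA receptor genes shared the same 2 leading libraries in opposite order, E14.5 first for *Grin2a* and E16.5 distal first for *Grin2b*.

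Of the neurotrophin receptor genes, *Ntrk2* was the member most evenly spread over stages. It was at 32.2, 41, 34.8 and 32.2 CPM from E11.5 to E14.5, at 42 and 42.9 CPM in E16.5 proximal and distal, and at 3.08 CPM in whole 1 and 2.55 CPM in whole 2. Its E16.5 libraries overlapped in their intervals, and the sorted E11.5 library was far above both whole limb libraries, with whole-to-sorted ratios of 0.0957 (0.0804 to 0.113) and 0.0793 (0.0656 to 0.0953). *Ntrk3*, by contrast, went from 0.127 CPM at E11.5 through 0.339, 2.64 and 13.9 CPM at E12.5, E13.5 and E14.5 to 11.3 and 20.6 CPM in E16.5 proximal and distal, with 0.0585 CPM in whole 1 and 0.078 CPM in whole 2. *Ntrk3* was low at the first stages and highest in E16.5 distal, with no overlap between E16.5 distal, E14.5 and E16.5 proximal.

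*Calb2* and *Snhg11* had no late maximum. *Calb2* was at 6.67, 10.8, 3.61 and 9.25 CPM from E11.5 to E14.5, at 1.22 and 9.84 CPM in E16.5 proximal and distal and at 3.61 CPM in whole 1 and 4.19 CPM in whole 2. *Snhg11* was at 11.1, 14, 11.3 and 13.9 CPM over those stages, at 5.66 and 13.1 CPM in E16.5 proximal and distal and at 5.83 CPM in whole 1 and 5.81 CPM in whole 2. For each of these genes E12.5, E14.5 and E16.5 distal formed the top of the order with overlapping neighbours, and E16.5 proximal came last.

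**Figure D1:**
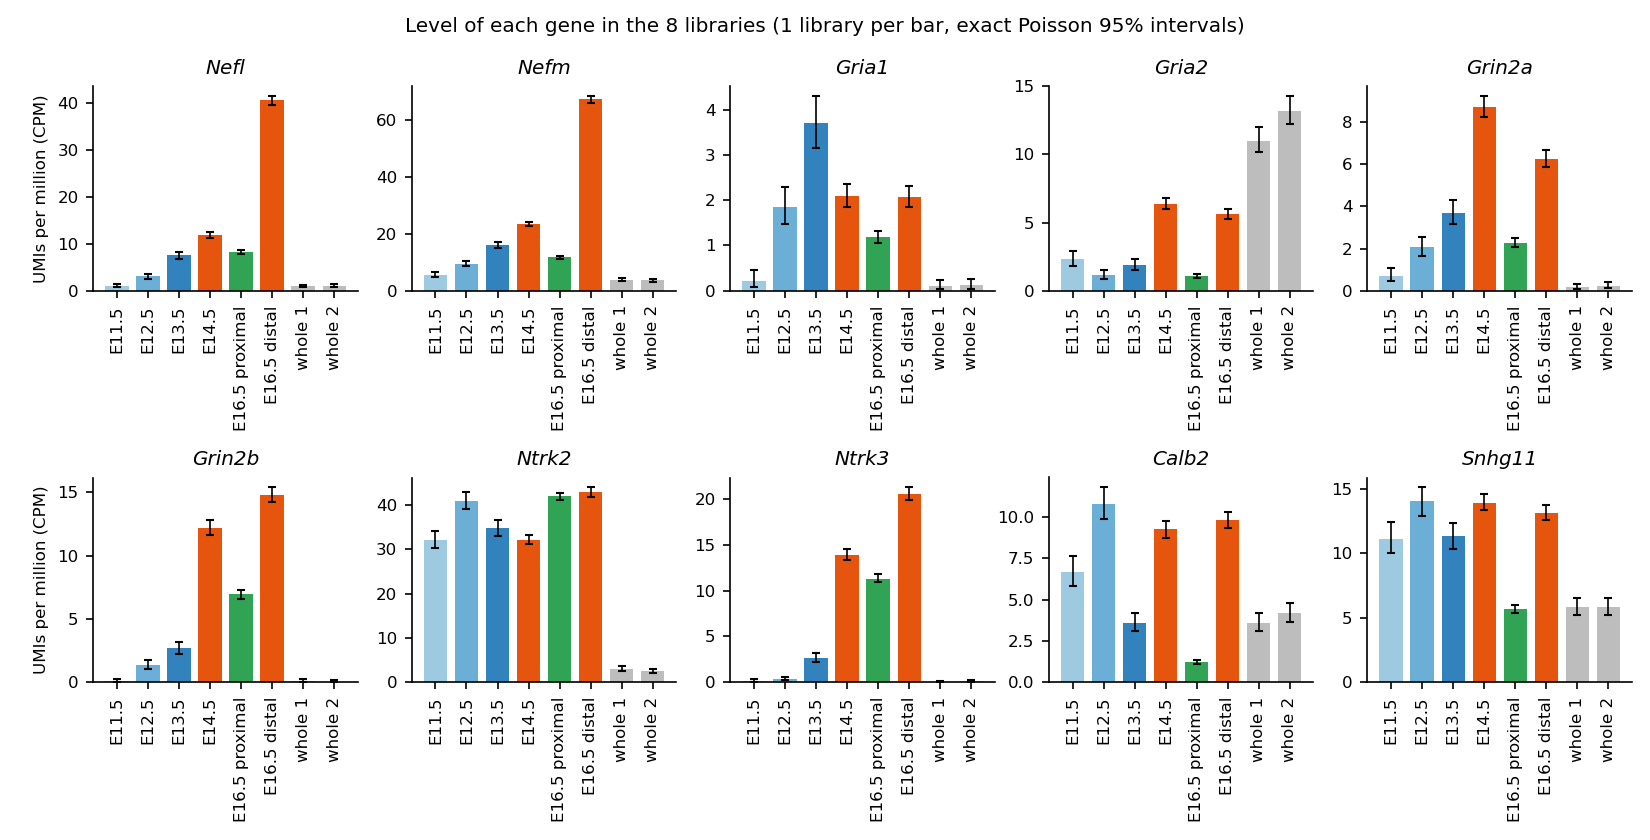
Level of each of the 10 genes in UMIs per 1000000 (CPM, linear axis from 0, own scale per gene) in the 8 libraries. Each bar is 1 library with its exact Poisson 95% interval, and the E14.5 and E16.5 distal bars are orange. For *Nefl* the E16.5 distal bar stands at 40.6 CPM against 8.21 CPM in E16.5 proximal, whereas the *Ntrk2* bars of the sorted libraries lie between 32.2 and 42.9 CPM.

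The pattern named in the choice of the genes, E14.5 and E16.5 distal both above the other 4 sorted libraries, was met by 6 of the 10 (*Nefl*, *Nefm*, *Gria2*, *Grin2a*, *Grin2b* and *Ntrk3*), beside 7.65% of all 19119 genes compared. It was not met by *Gria1*, *Ntrk2*, *Calb2* or *Snhg11*, each of which had an earlier or proximal library at or above the level of E14.5 or E16.5 distal. Closest to the limit on the inside was *Ntrk3*, with 13.9 CPM at E14.5 against 11.3 CPM in the next library, and on the outside *Snhg11*, with 13.1 CPM in E16.5 distal against 14 CPM at E12.5. The count was 6 or 7 under every other choice of cells that was tried.

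Between the E16.5 segments, 7 of the 10 genes were at least 2-fold higher distally, beside 10.7% of all genes tested in that direction, and none was at least 2-fold lower. Since this contrast helped to choose the genes, nothing is read from that count. *Calb2* had the largest ratio, 8.08 (7.12 to 9.2), followed by *Nefm* at 5.74 (5.51 to 5.99), *Gria2* at 5.26 (4.57 to 6.08) and *Nefl* at 4.95 (4.7 to 5.21). *Grin2a* was at 2.75 (2.47 to 3.06), *Snhg11* at 2.32 (2.16 to 2.48) and *Grin2b* at 2.14 (2.01 to 2.28), the last just inside the limit and at 1.93 at the lowest under other choices. Just outside it were *Ntrk3* at 1.81 (1.72 to 1.91) and *Gria1* at 1.75 (1.49 to 2.06), while *Ntrk2* was at 1.02 (0.991 to 1.05). The segments also differed in their cell makeup: the 9 genes of the epithelial list (*Krt14*, *Krt5*, *Epcam* and others) summed to 4063.6 CPM in E16.5 proximal and 667 CPM in E16.5 distal, and cells with 3 or more of them made up 17.7% and 3.08% of the libraries. Without cells with 2 or more epithelial markers, 6814 of 11109 E16.5 proximal and 7155 of 8447 E16.5 distal cells were left. Of the 7 calls 6 then held, all but that of *Grin2b*, and the ratio of *Gria2* was 26.9 instead of 5.26. E16.5 proximal held 250 UMIs of *Gria2* before this removal, 80.4% of them in 1 keratin-rich cluster. The ratio of 26.9 thus rests on few proximal UMIs and has no interval here. As a ratio of CPM + 1, *Gria2* was at 3.2 and *Calb2* at 4.89.

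Against E13.5, E14.5 was at least 2-fold higher for 5 genes, beside 9.52% of all genes tested. These were *Ntrk3* at 5.26 (4.38 to 6.39), *Grin2b* at 4.58 (3.81 to 5.56), *Gria2* at 3.45 (2.76 to 4.37), *Calb2* at 2.56 (2.17 to 3.03) and *Grin2a* at 2.37 (2.02 to 2.81). *Gria1* was lower at E14.5, at 0.567 (0.466 to 0.69) of its E13.5 level. Against E16.5 proximal, E14.5 was at least 2-fold higher for 5 genes, beside 13.3% of all genes: *Calb2* at 7.59 (6.67 to 8.67), *Gria2* at 6 (5.21 to 6.94), *Grin2a* at 3.83 (3.45 to 4.25), *Snhg11* at 2.46 (2.29 to 2.64) and *Nefm* at the limit. In the 63 keratin-rich cells of E14.5, the counting intervals of *Snhg11* and *Nefm* include their levels in the whole E14.5 library. *Nefm* fell below 2-fold under 4 of 10 other choices. *Gria2* was at 31.2 without the epithelial cells, again over the few proximal UMIs left. As a ratio of CPM + 1, *Gria2* was at 3.58 and *Calb2* at 4.62. On the outside, *Gria1* at 1.77 and *Grin2b* at 1.76 were closest to the limit. These comparisons share E14.5 or E16.5 proximal, so their ratios are not independent of each other. E16.5 distal itself differed from E14.5 by more than 2-fold for *Nefl*, at 3.41 (3.23 to 3.61), and *Nefm*, at 2.87 (2.75 to 2.98), beside 13.6% of all genes tested that were higher.

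**Figure D2:**
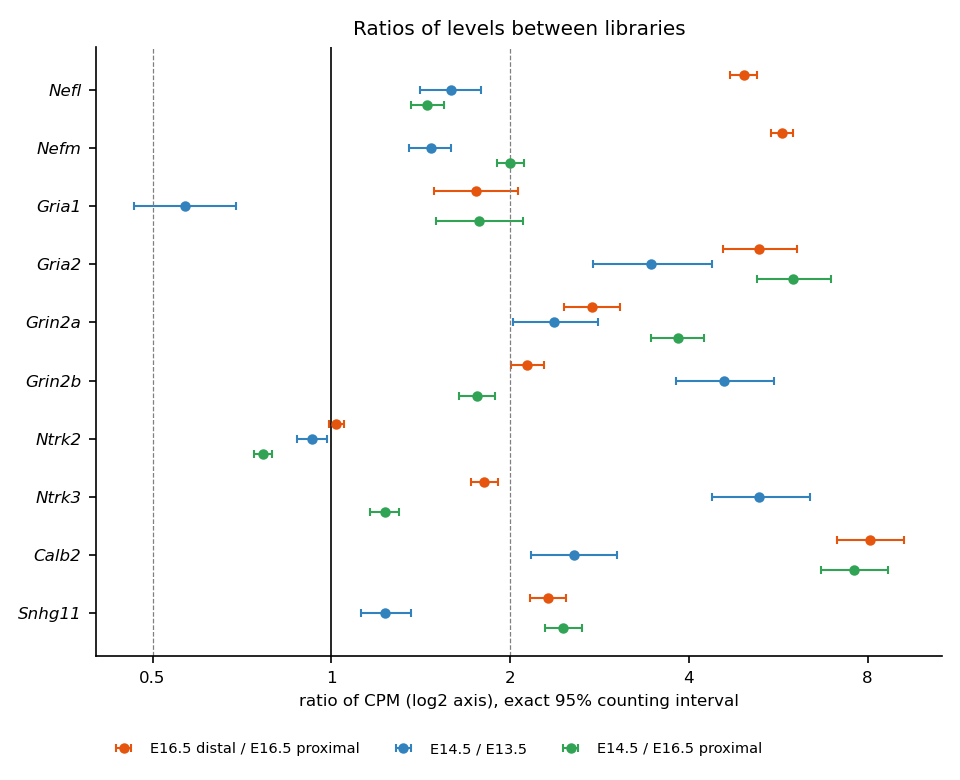
Ratios of CPM between libraries for the 10 genes, on a log2 axis, with exact 95% counting intervals as bars and dashed lines at 0.5 and 2. Orange compares E16.5 distal with E16.5 proximal, blue E14.5 with E13.5 and green E14.5 with E16.5 proximal. *Calb2* and *Gria2* lie to the right of 2 in all 3 comparisons, and *Ntrk2* lies between 0.768 and 1.02.

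How many cells held each transcript was compared after every cell had been thinned to 3000 UMIs. *Nefl* was then seen in 7.75% of E16.5 distal cells, 2.54% of E14.5 cells and 1.87% of E16.5 proximal cells, and *Nefm* in 10.8%, 4.77% and 3%. *Ntrk2* was seen in 10.5%, 7.72% and 10.4%, so its even level was mirrored in even shares. Without thinning, 1489 and 1978 of 8447 E16.5 distal cells held *Nefl* and *Nefm*, with at most 47 and 82 UMIs in a cell. *Calb2* was the most unevenly spread: its 10 richest cells held 34.6% of all its UMIs at E14.5 and 24.1% in E16.5 distal, up to 68 and 56 UMIs in a cell, and only 1.07% and 1.35% of thinned cells had any. *Ntrk2* lay at the other end, with 3.12% and 2.43% of its UMIs in the 10 richest cells.

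Read against the name autopod mesenchyme, the data divide. Cells with a *Hoxa13* or *Hoxd13* UMI (Hox13+ cells) made up 32.6% of E14.5, 57.9% of E16.5 distal and 3.09% of E16.5 proximal cells, so the distal library was rich in autopod cells and E14.5 held a minority. At E14.5, none of the 10 genes was at least 2-fold higher in Hox13+ cells, beside 1.63% of all genes, and 3 were at least 2-fold lower, beside 5.71%. *Grin2a* was at 3.74 CPM in Hox13+ and 11.1 CPM in Hox13- cells, a ratio of 0.338 (0.284 to 0.4). *Ntrk2* was at 17.9 and 38.9 CPM (ratio 0.46, 0.425 to 0.497) and *Ntrk3* at 4.87 and 18.1 CPM (ratio 0.269, 0.231 to 0.31). Only *Gria1*, at 1.47 (1.15 to 1.87), and *Snhg11*, at 1.2 (1.09 to 1.32), were above 1 at E14.5. *Calb2*, at 0.86 with all cells, was at 0.5 without its 10 richest cells in each group and at 1.12 after every cell had been thinned to 3000 UMIs. At E14.5 the values therefore go against the name for 7 of the 10 genes, whose ratio and interval lay below 1. For 6 of them (all but *Calb2*) the ratio was below 1 under every other choice tried. The share of all genes below 1 was not counted, so the count of 7 has no background. Of all genes tested, 1.52% had a lower ratio than *Ntrk3*, 14.4% than *Nefl*, 25.1% than *Calb2* and 27.4% than *Nefm*. A cell without a UMI of either Hox gene may still express it.

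In E16.5 distal, 3 genes were at least 2-fold higher in Hox13+ cells, beside 3.88% of all genes, and 1 was lower, beside 5.56%. *Calb2* was at 14.9 CPM in Hox13+ and 2.64 CPM in Hox13- cells (ratio 5.64, 4.81 to 6.64), *Gria1* at 2.95 and 0.823 CPM (3.58, 2.66 to 4.88) and *Snhg11* at 18.3 and 5.67 CPM (3.23, 2.89 to 3.62). *Grin2a* was again lower, at 3.76 and 9.85 CPM (0.381, 0.334 to 0.435). With all UMIs the neurofilament genes were slightly higher in Hox13+ cells, *Nefl* at 44.8 and 34.7 CPM and *Nefm* at 74 and 57.7 CPM, and *Gria2* was at 5.56 and 5.66 CPM, with an interval of the ratio of 0.858 to 1.13. Depth was close between the groups, with median UMIs of 17402 and 17098 in E16.5 distal and 13470 and 14802 at E14.5. When every cell was thinned to 3000 UMIs, which leaves 25.2% of E16.5 distal cells with a Hox13 UMI, no member stayed at least 2-fold higher: *Calb2* was at 1.7, *Gria1* at 1.59 and *Snhg11* at 1.93. The ratios of *Nefl* (0.913) and *Nefm* (0.924) then lay below 1. Without the 10 richest cells of each gene in each group, *Calb2* was at 8.68 and *Gria1* at 5.64. Before this removal the Hox13- cells held 173 UMIs of *Calb2* and 54 of *Gria1*. As a ratio of CPM + 1 *Gria1* was at 2.16.

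For the part of the name that refers to mesenchyme, *Pdgfra* in the same cells had helped to choose the genes, so its values are a description. At E14.5, 81.5% of all cells held a *Pdgfra* UMI, the transcript of the platelet-derived growth factor receptor alpha of mesenchymal cells, and so did 83.6% (*Nefl*) to 92.2% (*Gria1*) of the cells with a UMI of a member. In E16.5 distal the share was 86.5% of all cells and 85.5% (*Gria2*) to 94.8% (*Gria1*) of member cells. All 10 genes had a higher level in Pdgfra+ than in Pdgfra- cells at E14.5. The lowest was *Snhg11* at 1.13 (0.995 to 1.29), with 74.7% of all tested genes below it. The share of all genes above 1 was not counted in either library. Of the 10 genes, 2 were higher by at least 2-fold (*Calb2* 4.04, 3.1 to 5.36, and *Gria1* 2.9, 1.8 to 4.97), beside 2.06% of all genes. After thinning to 3000 UMIs neither stayed past 2-fold, *Calb2* at 1.81 and *Gria1* at 1.24, and *Nefl* was at 0.895. In E16.5 distal, before thinning, 9 genes were higher in Pdgfra+ cells, all but *Gria2* at 0.845 (0.701 to 1.03). The lowest of the 9 was *Snhg11* at 1.27, with 78.1% of all tested genes below it. By at least 2-fold 3 were higher (*Calb2* 3.06, *Gria1* 2.34 and *Grin2b* 2.17), beside 5.04% of all genes. After thinning, *Calb2* was at 1.22 and *Grin2b* at 1.09, *Gria1* at 2.6, and 4 genes were below 1: *Nefl* at 0.87, *Nefm* at 0.998, *Grin2a* at 0.816 and *Snhg11* at 0.846. Leaving out the 10 richest cells of each gene from each group gave higher values, 12.4 for *Calb2*, 6.49 for *Gria1* and 2.06 for *Gria2* at E14.5. In E16.5 distal it gave 17.6, 35.9 and 1.7 for these genes, 2.35 for *Grin2a* and 2.33 for *Ntrk3*. Before this removal the Pdgfra- cells held 58 UMIs of *Calb2* and 18 of *Gria1* at E14.5, and 70 and 19 in E16.5 distal. The removal takes a larger part of such small counts, so nothing is read from these higher values. As a ratio of CPM + 1, *Gria1* was at 1.85 at E14.5 and 1.65 in E16.5 distal, below 2 in both, and *Grin2b* was at 1.81 in E16.5 distal without cells with a nerve gene UMI. Deeper cells are more likely to show both transcripts, and Pdgfra+ cells were deeper, with median UMIs of 14666 against 12896 at E14.5 and 17481 against 15842 in E16.5 distal. At 3000 UMIs per cell, the share of cells with *Pdgfra* was 38% of all E14.5 cells against 35.2% (*Nefl*) to 53.3% (*Calb2*) of member cells, and 44.3% of all E16.5 distal cells against 36.9% (*Grin2a*) to 66.7% (*Gria1*). The interval of the share lay above that of all cells for 5 genes at E14.5 (*Calb2*, *Ntrk2*, *Snhg11*, *Grin2b* and *Ntrk3*) and for 1, *Gria1*, in E16.5 distal, and included it for the others.

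**Figure D3:**
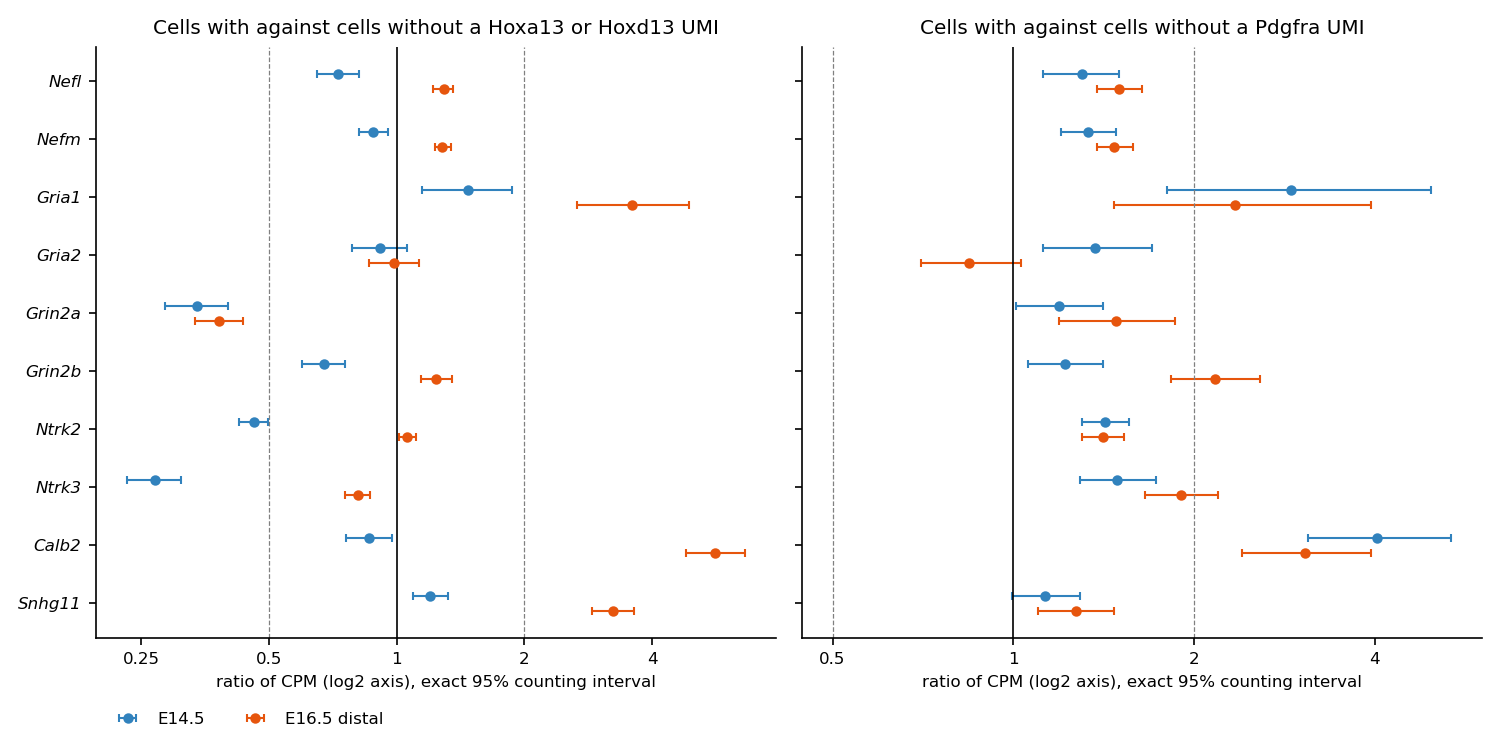
Ratios of CPM for the 10 genes between cells with and without a *Hoxa13* or *Hoxd13* UMI (left) and with and without a *Pdgfra* UMI (right), on log2 axes, with exact 95% counting intervals and dashed lines at 0.5 and 2. Blue is E14.5 and orange E16.5 distal. *Calb2* is at 0.86 at E14.5 and 5.64 in E16.5 distal on the left, and *Gria2* is the only gene with a point below 1 on the right.

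Cells with 3 or more of 9 mesenchyme genes made up 99.4% of all E14.5 cells and 99.9% of all E16.5 distal cells, but also 98.3% of E16.5 proximal, where 17.7% of cells held 3 or more epithelial genes. So wide a measure does not separate mesenchymal from other cells, and nothing is read from it. Cells with 3 or more of 10 Schwann cell genes numbered 4 at E14.5, 4 in E16.5 distal and 10 in E16.5 proximal. Among cells with *Nefl* there were 0 of 687 at E14.5 (exact upper limit 0.536%) and 1 of 1489 in E16.5 distal. Schwann cell genes summed to 8.01 CPM at E14.5 and 6.09 CPM in E16.5 distal, below the 19.6 CPM of E16.5 proximal, and *Sox10* was at 0.343 and 0.207 CPM. The 20 genes of the neuron list summed to 236 CPM at E14.5, 207 CPM in E16.5 proximal and 311 CPM in E16.5 distal, and none of them was at 0 in these libraries. Cells with 3 or more of them were 15.5% of all E14.5 cells and 13.7% (*Calb2*) to 23.2% (*Gria2*) of member cells, and 18.6% of all E16.5 distal cells and 18.7% (*Grin2a*) to 37.1% (*Calb2*) of member cells. These shares are without thinning, and member cells were deeper. Median UMIs were 14696 (*Gria1*) to 17406 (*Calb2*) against 14333 over all cells at E14.5. In E16.5 distal they were 18024 (*Snhg11*) to 21488 (*Calb2*) against 17275. The part of depth in the shares was not tested. Leaving out every cell with a UMI of *Stmn2*, *Elavl3*, *Elavl4*, *Snap25*, *Prph* or 4 Schwann cell genes kept 6 of the 7 distal calls, all but that of *Grin2b*. This left 5949 of 8447 E16.5 distal and 9073 of 11109 E16.5 proximal cells. *Stmn2* was in 12.7% of distal and 2.81% of proximal cells, and *Prph* in 10.2% and 5.48%. With genes so widely seen, the filter cannot single out nerve cells, and nothing is read from the calls it kept.

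At E14.5 and in E16.5 distal, the neurofilament genes were the pair of members found together in the most cells. At 3000 UMIs per cell, 368 E16.5 distal cells held both *Nefl* and *Nefm*, 5.18 times the 71 that independent occurrence would give, and these were 56.2% of the cells with *Nefl* and 40.2% of those with *Nefm*. At E14.5 there were 74 such cells, 7.28 times the 10.2 under independence, and in E16.5 proximal 54, 8.66 times the 6.23, so the excess over independence was no smaller there, although *Nefm* with *Ntrk2* was found in more cells (60). The shared exonic bases on opposite strands bear on this pair, and their part in it was not tested. Among the pairs found in at least 20 cells of E14.5 or of E16.5 distal, the others at 2 times or more were *Nefm* with *Gria2* (20 cells at E14.5, 2.87 times, and 26 in E16.5 distal, 2.16 times), *Grin2a* with *Ntrk2* (33 cells at E14.5, 2.05 times) and *Grin2b* with *Snhg11* (25 cells in E16.5 distal, 2.2 times). Of all 45 pairs, 30 were above independence in each of these libraries. At least 1 of the 10 transcripts was seen in 34.4% of E16.5 distal cells, 26.6% of E14.5 cells, 20.6% of E16.5 proximal cells and 19.5% of E13.5 cells. At least 3 were seen in 2.1%, 0.704%, 0.324% and 0.098% of cells. At this depth a cell without a UMI may still hold the transcript, so these shares do not limit how many cells express several members.

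To see which cells those were, E14.5 and E16.5 distal were clustered separately without the members, Hox genes or *Pdgfra*, giving 19 clusters each, which are called by 1 or 2 of their leading genes. A name ending in -like was given only from a list of cell type markers. *Nefl* and *Nefm* had the same leading cluster in each library at this resolution. At E14.5 the highest cluster for *Nefl* and *Nefm* was *Zic2* (489 cells, 48.5% Hox13+), at 42.6 and 147 CPM, and it held 28.1% of all *Nefm* UMIs. In E16.5 distal it was *Mgat4c Aard* (376 cells, 91% Hox13+), at 157 and 227 CPM, followed by *Sfrp4 Col6a5* (511 cells, 14.7% Hox13+), at 135 and 222 CPM, and *Ephb1 Islr2* (720 cells, 86.7% Hox13+), at 98.5 and 159 CPM. At the finer clustering of E16.5 distal, *Nefl* was still highest in *Mgat4c Aard* (161 CPM), whereas *Nefm* was at 227 CPM there and at 235 CPM in a cluster of 270 cells led by *Islr2*. In E16.5 proximal the leading clusters also differed, one of 1574 cells for *Nefl* (32.1 CPM) and one of 242 cells for *Nefm* (44.9 CPM). Clusters rich and poor in Hox13+ cells both stood at the top for *Nefl* and *Nefm* in E16.5 distal.

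The receptor genes had other leading clusters. *Grin2a* lay mainly in *Pcp4* at E14.5 (645 cells, 5.89% Hox13+), at 52.8 CPM with 39.8% of its UMIs, and in *Sfrp4 Col6a5* in E16.5 distal, at 45.9 CPM with 43.6%. *Ntrk2* shared those places in part, at 82.7 CPM in *Pcp4* and 82.8 CPM in *Foxd2 Grp* at E14.5, and at 133 CPM in *Alpl* and 97.4 CPM in the pericyte-like *Acta2 Cma1* in E16.5 distal. *Gria2* was led by *Zic2* (33.4 CPM) and the dermal fibroblast-like *Calb1 Rspo1* (27 CPM) at E14.5 and by *Foxq1 Wfdc2* (568 cells, 26.6 CPM, 27.7% of UMIs) in E16.5 distal. Apart from *Acta2 Cma1* and *Calb1 Rspo1*, these clusters had no cell type name, so nothing is read from the lack of a neural one. The highest clusters of *Grin2a* and *Ntrk2* at E14.5 had 5.89% and 6.45% of Hox13+ cells.

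*Gria1* and *Grin2b* shared a small tenocyte-like cluster at E14.5, *Lrmp Eya1* (72 cells), as their highest one, at 11.2 CPM (4.82 to 22) from 8 UMIs and 65.6 CPM from 47 UMIs, but it held only 2.85% and 2.87% of their UMIs. The cluster with most *Gria1* UMIs (23.5%) was one of 706 cells led by *Islr2*, at 7.52 CPM and 84.4% Hox13+, and that with most *Grin2b* UMIs (19.1%) one of 827 cells led by *Sfrp4*. In E16.5 distal *Gria1* lay with *Calb2* in *Crym Cxcl9* (635 cells, 87.2% Hox13+), which held 45.5% of *Gria1* and 49.1% of *Calb2* UMIs, at 13.6 and 69.5 CPM. At the finer clustering their leading clusters parted: *Calb2* stayed in *Crym Cxcl9* (105 CPM), and *Gria1* was highest in another cluster of 324 cells (16 CPM, 24.5% of its UMIs). *Calb2* had been elsewhere at E14.5, with 51.8% of its UMIs in *Calb1 Rspo1* (551 cells, 7.99% Hox13+) at 72.6 CPM, and at a finer clustering 42.9% lay in only 113 cells at 320 CPM. The main *Calb2* cluster thus had few Hox13+ cells at E14.5 and many in E16.5 distal. *Grin2b* and *Ntrk3* both peaked in *Hbb-bs Hbb-bt* in E16.5 distal (294 cells, 16.3% Hox13+), at 58.3 and 80.6 CPM. That cluster was led by haemoglobin transcripts, but *Tbx3*, *Kif26b* and *Sp9* were also among its top genes, and 96.6% of its cells held a *Pdgfra* UMI. In the whole E16.5 distal library, 13 cells held 3 or more of 6 erythroid genes. The part of red cell RNA or red cell doublets in the cluster was not tested. *Snhg11* was spread most widely at E14.5, where 5 clusters with 42.1% of cells were needed for 50% of its UMIs, and lay in *Ephb1 Islr2* in E16.5 distal, at 66.3 CPM with 39.6% of UMIs.

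Free RNA gives some UMIs in every droplet, so levels in keratin-rich cells serve as a background. In the epithelial-like cluster of E14.5 (63 cells), *Nefl*, *Gria1*, *Grin2b* and *Ntrk3* had 0 UMIs and *Grin2a*, *Ntrk2* and *Calb2* 0.726 CPM each, but *Nefm* was at 16.7, *Snhg11* at 14.5 and *Gria2* at 7.26 CPM. In that of E16.5 distal (65 cells), *Nefl* was at 7.71, *Gria2* at 9.42 and *Nefm* at 1.71 CPM, and the other members were between 0 and 1.71 CPM. The library level of *Snhg11* at E14.5 (13.9 CPM) was below its level in the keratin-rich cells of E14.5. These cells thus set no background below that level, nor for the E14.5 side of its ratios, whereas its leading cluster in E16.5 distal was well above. The same holds for *Nefm* at E14.5, whose 23 UMIs in these cells have an interval of 10.6 to 25 CPM that includes the library level of 23.5 CPM, although its leading cluster was at 147 CPM. *Ntrk2*, at 32.2 CPM in the E14.5 library, was at 0.726 CPM in the same cells. Whether their *Snhg11* and *Nefm* UMIs come from free RNA or from the cells themselves was not tested. The library levels of *Gria2* (6.39 CPM at E14.5 and 5.6 CPM in E16.5 distal) were also below those in keratin-rich cells. For *Gria2*, however, keratin-rich cells are no measure of background, since in E16.5 proximal most of its UMIs came from them: 80.4% lay in 1 cluster of 325 cells led by *Krt14* and *Ccer2*, at 24.8 CPM, and 85.6% in cells with 3 or more epithelial genes, which held 26.1% of all UMIs. No background level was thus set for *Gria2*, and its calls and pattern carry that limit.

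**Figure D4:**
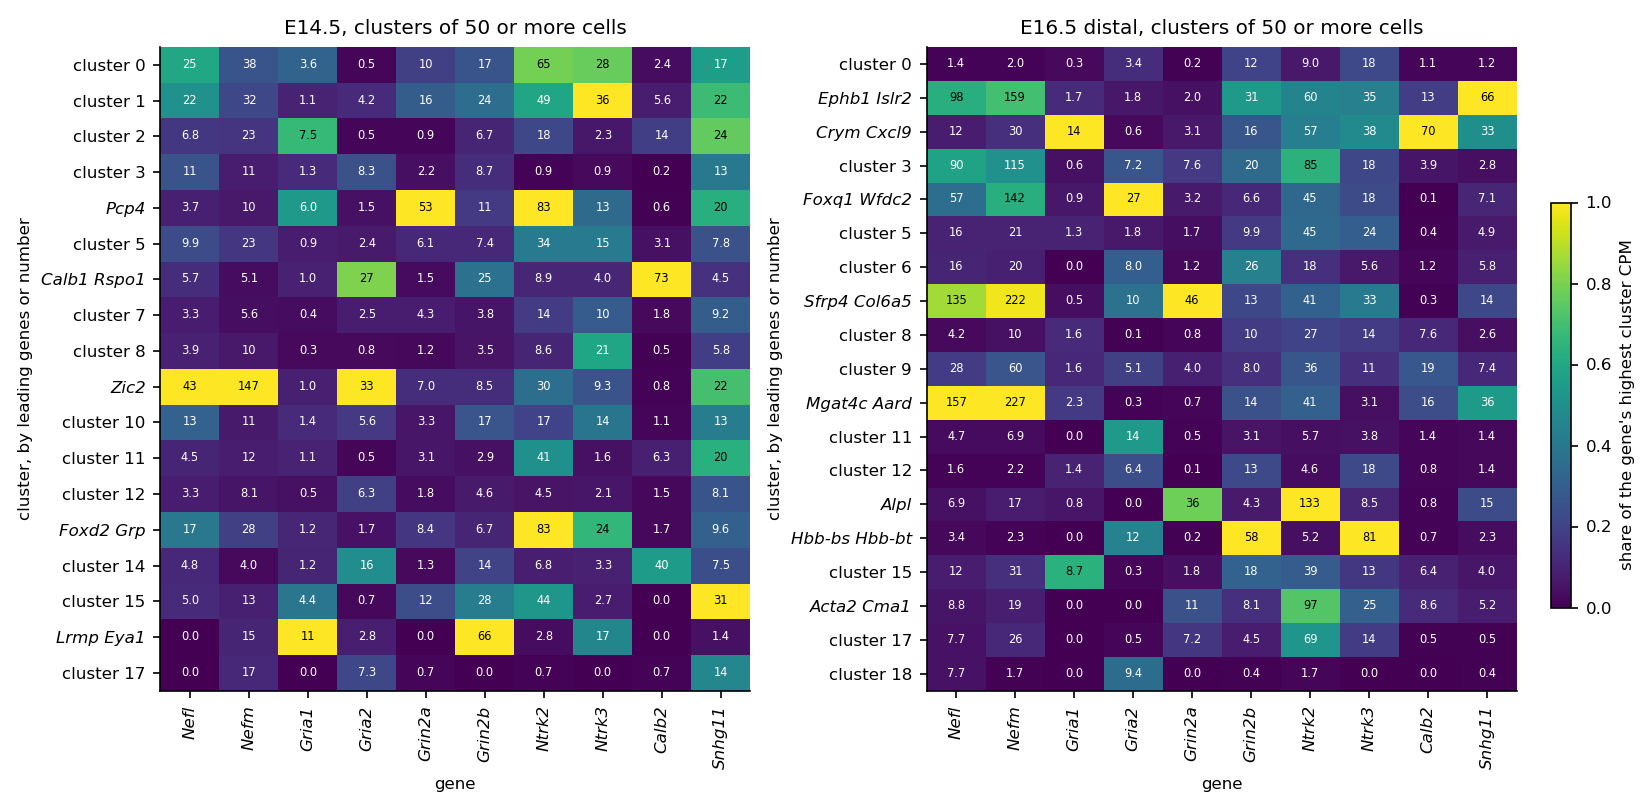
Level of each of the 10 genes in the clusters of 50 or more cells at E14.5 (left, 18 clusters) and in E16.5 distal (right, 19 clusters), with clusters as rows, those described in the text called by 1 or 2 of their leading genes and the others by a number. Numbers are CPM, and colour gives the share of the gene's highest cluster in that library, from dark (0) to yellow (1). *Nefl* and *Nefm* are yellow in the same row of each panel (*Zic2* and *Mgat4c Aard*), *Grin2a* in *Pcp4* and *Sfrp4 Col6a5*, and *Calb2* in *Calb1 Rspo1* and *Crym Cxcl9*.

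Across the 37 clusters of 50 or more cells, which share 2 libraries and differ in depth, the log levels of the members gave 45 pairs, of which 35 had a Pearson r above 0 and 7 above 0.5, with a median of 0.213, and 27 were above 0 within each library. Over both libraries *Nefl* and *Nefm* had the highest r (0.823), but it was 0.561 within E14.5 and 0.937 within E16.5 distal. *Grin2a* and *Ntrk2* followed at 0.705 (0.794 and 0.748 within the libraries), then *Nefm* and *Ntrk2* (0.577) and *Grin2b* and *Ntrk3* (0.567), and *Gria2* and *Ntrk2* were least alike (-0.494). Among 9230 other genes, the 10 most like the mean of the members over these clusters were *Nkain4* (r = 0.837), *Pdpn*, *Nenf*, *Agtr2*, *Plcb4*, *Arhgap20*, *Tnfsf12*, *Kctd12*, *Gnas* and *Serping1* (0.783). By member, the 3 most alike were *Col6a6*, *Cacna1e* and *Rspo2* for *Nefl*, *Ppp2r2b*, *Tox3* and *Rspo2* for *Nefm*, *Slc35f3*, *Tnnt1* and *Amot* for *Gria1* and, among the 3 for *Gria2*, *Foxq1* and *Nebl*. They were *Col6a5*, *Igf1* and *Lgi2* for *Grin2a*, *Kcp*, *Map1b* and *Abca5* for *Grin2b*, *Sult1a1*, *Rarres2* and *Pear1* for *Ntrk2* and *Nr4a2*, *Pros1* and *Gem* for *Ntrk3*. For *Calb2* they were *Capza1*, *Ralb* and *Nes*, and for *Snhg11* *Zswim7*, *Srr* and *Bdh2*. The r values of the genes named by member run from 0.573 (*Nes*) to 0.856 (*Ppp2r2b*) and describe clusters, not independent samples.

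Genes that act with the members in neurons did not all follow them. *Grin1*, the obligatory NMDA receptor subunit gene, was at 0.397 CPM at E13.5, 0.276 CPM at E14.5 and 0.187 and 0.176 CPM in E16.5 proximal and distal (44 and 28 UMIs), so it did not share the distal difference of *Grin2a* and *Grin2b*. Of 6 NMDA receptor genes tested between the E16.5 segments, 3 were at least 2-fold higher distally and none lower, beside 10.7% of all genes higher and 9.59% lower. Apart from the chosen *Grin2a* and *Grin2b* this was *Grin3a*, whose product is an inhibitory subunit, at 9.02 and 1.68 CPM (ratio 5.38). Of 4 AMPA receptor genes only *Gria2* was, and of 7 kainate and delta receptor genes *Grik1* (7.95) and *Grik2* (6.51) were. Among 23 glutamate receptor partner genes, 7 were at least 2-fold higher distally (10.7% of all genes) and none lower (9.59%). They included the postsynaptic scaffold genes *Shank1* (8.04), *Shank3* (2.78) and *Dlg4* (2.09), the AMPA receptor auxiliary subunit genes *Cacng4* (6.57) and *Cacng5* (2.25) and the kainate receptor auxiliary subunit gene *Neto1* (3.11). The median ratio was 1.47 over these partner genes against 1.1 over all genes tested, and 1.92 over the NMDA receptor genes, which is not compared since 2 of the 6 were chosen in part by this contrast.

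Against the same 10.7% of all genes higher and 9.59% lower, the other neuronal lists were mixed. Of 5 neuronal intermediate filament genes, 3 were at least 2-fold higher distally. They were the chosen *Nefl* and *Nefm* and *Prph*, the gene of peripherin, at 13.4 and 5.06 CPM (2.65). *Nefh*, the heavy neurofilament subunit gene looked up after its values were seen, was at 0.192 CPM in E16.5 proximal and 0.126 CPM in E16.5 distal (20 UMIs). Of 19 neuron genes tested, 6 were at least 2-fold higher distally, led by *Stmn2* at 46.5 and 5.93 CPM (7.84), and 2 were lower, with a median of 1.18. Among 15 synaptic vesicle release genes 3 were higher and 3 lower, with a median of 1.05. No gene of 9 neurotrophins and their receptors passed 2-fold, and the median was 0.889, *Ntrk2* and *Ntrk3* included. Of 9 neuronal calcium binding protein genes, *Calb2* and *Calb1* (2.06) were higher and *S100b* (0.374) lower, and of 4 long noncoding RNAs abundant in neurons only *Snhg11* was higher.

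Between E13.5 and E14.5, 9.52% of all genes were at least 2-fold higher at E14.5 and 10% lower. Of 6 NMDA receptor genes 2 were at least 2-fold higher at E14.5 (*Grin2a* and *Grin2b*) and 1 lower, *Grin2c* at 0.365, the higher ones both being chosen genes. Of 22 partner genes 1 was higher (*Shank3*, 8.81) and 3 lower (*Camk2b* 0.326, *Dlgap1* 0.431 and *Shank2* 0.461). Of 9 neurotrophins and their receptors *Ntrk3* was higher and 2 were lower, among them *Ngfr* (0.49), and of 8 calcium binding protein genes 4 were higher, *Hpca* (7.96), *Necab1* (6.86), *Calb1* (4.43) and *Calb2*. *Prph* was also higher, at 3.76 and 0.463 CPM (8.13), while *Stmn2* was lower, at 30.2 and 75.8 CPM (0.399), so not all neuronal genes were higher at E14.5 as the 5 members were.

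**Figure D5:**
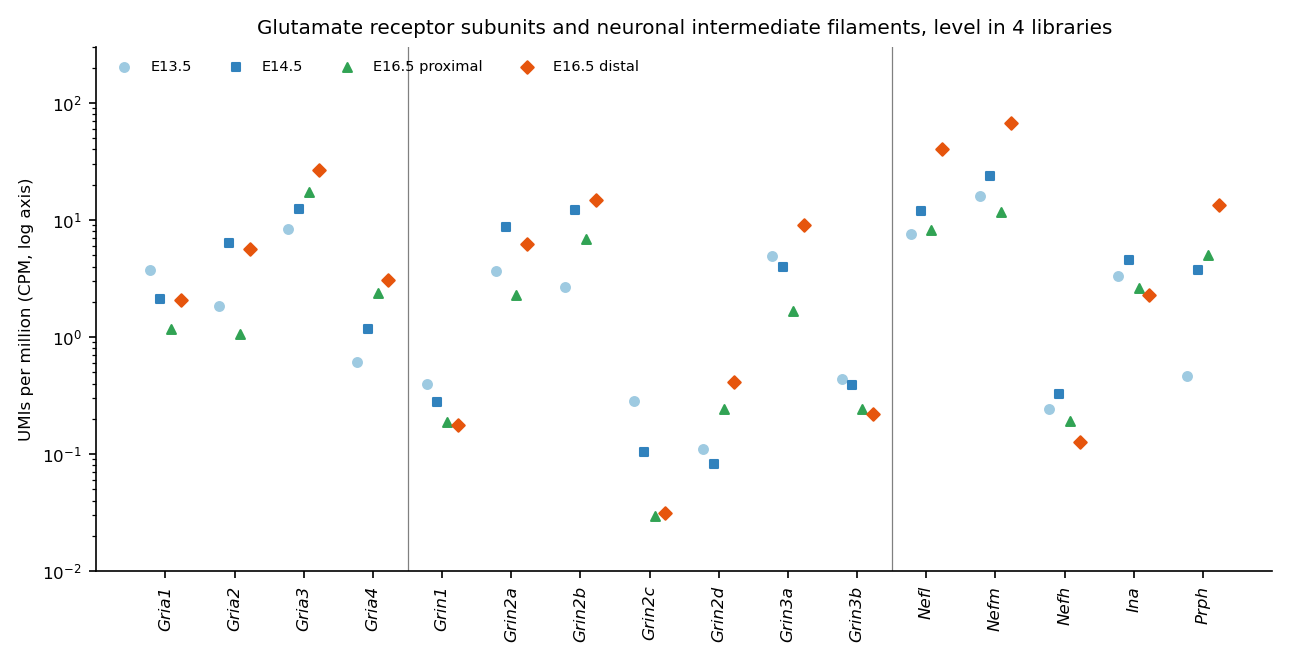
Levels in CPM (log axis) of all AMPA (left) and NMDA (middle) receptor subunit genes and of 5 neuronal intermediate filament genes (right) in E13.5, E14.5 and both E16.5 libraries, 1 point per library. *Grin1* lies between 0.176 and 0.397 CPM in all 4 libraries and *Nefh* between 0.126 and 0.328 CPM, while *Nefl*, *Nefm* and *Grin2b* have their highest point in E16.5 distal.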

How the data were processed

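The authors deposited unnormalised UMI counts for every gene in every barcode, made with Cell Ranger (3.0.2 for 5 sorted libraries and 6.0.1 for E16.5 distal, per the file headers; the whole limb headers name no version) against a modified mm10 reference. Totals ran from 32957305 UMIs (E11.5) to 236408650 UMIs (E16.5 proximal). From these counts, cells reaching the study's minimum of 3000 UMIs and at most 10% mitochondrial UMIs were retained and summed by library or cell group (Python 3.11.15, numpy 2.4.6, scipy 1.17.1, pandas 2.3.3). A call is a ratio of CPM of at least 2 or at most 0.5 among genes with at least 20 UMIs over both groups, its interval is the exact conditional binomial one, and a gene at 0 was given a floor of 3 UMIs. Levels have exact Poisson and shares exact binomial intervals. The depth of each library sets only these counting intervals. The scripts were tested on simulated data.

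Clusters were made with the Leiden algorithm at resolution 1 on 25 neighbours in 50 components of 2000 variable genes (scikit-learn 1.9.0, scanpy 1.11.5, igraph 0.11.9, leidenalg 0.10.2), with names from marker lists. Scrublet's own threshold called under 0.5% of cells in 5 of the 6 sorted libraries, so the 6% of cells with the highest scores were left out as an alternative instead.

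The members, the gene lists and the tests were chosen with earlier results of these data known. Named genes are the members, pathway genes past 2-fold, obligatory subunits, the genes most like the members and the leading genes of clusters; a few that this rule names are not reported here. Other alternatives were a minimum of 5000 UMIs, all barcodes, no mitochondrial limit, thinning, a minimum of 100 UMIs, and CPM + 1. Further ones left out epithelial cells, nerve gene cells or the 10 richest cells of a gene in each library or group compared.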

Additional observations from a re-analysis of the deposited data

Results flagged for a closer look

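For 5 genes, Hox13+ cells were on the lower side of Hox13- cells at E14.5 and on the higher side in E16.5 distal. The ratios were 0.726 and 1.29 for *Nefl*, 0.881 and 1.28 for *Nefm*, 0.673 and 1.24 for *Grin2b*, 0.46 and 1.06 for *Ntrk2*, and 0.86 and 5.64 for *Calb2*. The difference between the stages was not tested, since each is 1 library. At 3000 UMIs per cell the distal ratios of *Nefl* (0.913), *Nefm* (0.924) and *Ntrk2* (0.99) came below 1 and the E14.5 ratio of *Calb2* (1.12) above it, so that the opposite sides were kept only by *Grin2b*.

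*Gria2* was at 11 CPM in whole 1 and 13.2 CPM in whole 2, above every sorted library, in data that no comparison between sorted libraries uses. Against sorted E11.5 the ratios were 4.83 (3.78 to 6.27) and 5.78 (4.53 to 7.48). At 3000 UMIs per cell, 18.1% (12.4 to 25) and 29.5% (23.1 to 36.5) of the cells with *Gria2* held a *Pdgfra* UMI, against 28.4% and 33.6% of all cells. Cells with 3 or more of *Hoxa13*, *Hoxd13*, *Hoxd12*, *Hoxa11*, *Hoxd11*, *Msx2* and *Lhx9* were at 2.77 and 4.61 CPM of *Gria2* against 22 and 23.2 CPM in the other cells. They made up 48.8% and 46.7% of the cells, a wider group than the Hox13+ cells at 34.6% and 32.8%.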

How the results depend on the processing

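Of 99 recomputed counts of members, 94 stayed within 1.5 times the reported one. The count of genes at least 2-fold higher in Hox13+ cells of E16.5 distal, reported as 3, was 0 after thinning every cell to 3000 UMIs. That in Pdgfra+ cells of E14.5, reported as 2, was 1 with CPM + 1 and 0 after thinning. That in Pdgfra+ cells of E16.5 distal, reported as 3, was 1 after thinning and 5 without the 10 richest cells of each gene in each group. The last setting takes a larger part of the few UMIs in Pdgfra- cells, so nothing is read from its count. By construction, thinning moves cells with few Hox13 or *Pdgfra* UMIs to the negative group; how much of the change this makes was not tested. No setting turned a called ratio to the other direction, and 57 of 70 single ratios stayed on the same side of 1 and 56 of 70 kept their call under all alternatives. No paired analysis was possible because each sorted group is 1 library. The alternatives for the levels over the 8 libraries were added after the data had been seen. With 1 library a group, the spread between embryos is not measured.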
